A study of Zea mays with 12 samples.

Results

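Expression of 5 maize genes of gibberellin synthesis and signalling was followed in shoot apices of tml1;tml2 mutants and wild-type siblings. They were chosen by gene ID from a table of 39324 genes. The 3 synthesis enzymes were an1 (anther ear1, Zm00001d032961), d3 (dwarf3, Zm00001d045563) and d1 (dwarf1, Zm00001d039634). The 2 DELLA genes were d8 (dwarf8, Zm00001d033680) and d9 (dwarf9, Zm00001d013465). All 5 were among the 22772 genes that passed the expression filter. The pairing of names with IDs is that of the gene list given for this work, because the files hold IDs alone and the reference gene table matched 0 of the 39324.

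Gibberellins are diterpenoid hormones that promote stem and leaf growth. They are made in a chain of steps that opens with ent-copalyl diphosphate synthase (encoded in maize by an1), passes through ent-kaurenoic acid oxidase (d3, a cytochrome P450 of the CYP88A family) and ends with the 3-oxidase that makes the bioactive form (d1). DELLA proteins are nuclear repressors of growth. Bioactive gibberellin bound to its receptor leads to their breakdown, so DELLA function is set largely at the protein, which RNA does not show. Loss of an enzyme dwarfs the maize plant, and dominant d8 alleles that the hormone cannot relieve do the same. In the maize shoot apex the homeobox protein KNOTTED1 activates a gibberellin-inactivating oxidase at the base of the meristem, which keeps the hormone low there while leaf primordia respond to it.

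Both genotypes were in inbred line B104. The mutants were homozygous for CRISPR/Cas9 loss-of-function alleles of tml1 and tml2, described as segregating independently of the editing transgene, and their titles mark them HMZ. The wild types were segregating siblings of the edited material. TOO MANY LATERALS genes encode WIP-type zinc finger transcription factors and are studied for their part in vein patterning. Seeds were chip-genotyped and germinated for 7 days. The dissected apex held the meristem, the leaf sheath and the primordia numbered plastochron 0 to 5 from the youngest outward, with root, embryo and coleoptile cut away. Each genotype had 3 samples, numbered 2, 3 and 4, and each sample was sequenced in 2 runs that were combined here. The labels' wording leaves unclear whether a sample is 1 apex or a pool of 3, so the tests below measure the spread between these samples, whatever its source.

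Samples held 27213052 to 31980536 estimated counts, at which a floor of 3 counts corresponds to 0.0938 to 0.11 CPM (counts per 1000000 counts), for counting error only. The first principal component of all tested genes held 46% of the variance. Mutant 4 stood at one end of it, at a score of 116, and wild types 2 and 4 at the other, at −84 and −64.5. Mutant 3 stood on the side of mutant 4, at 26.2. Wild type 3 at 9.88 and mutant 2 at −3.21 lay between, in exchanged order. This component thus ran largely with genotype but did not part the groups fully. The meristem, leaf, vascular, root, seed and photosynthesis markers listed for a check of the tissue were not analysed here, since 0 of 27 symbols could be paired with an ID of the table. The same held for the wider gibberellin pathway, with 0 of 39 symbols paired, and for tml1 and tml2, so the genotype of a sample rests on its label. Nucleotide and protein sequences of the 5 genes were not used here.

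DELLA transcripts far outnumbered those of the enzymes. Levels between genes are compared in TPM (transcripts per 1000000 transcripts), which is per transcript length, as the mean of the 2 runs. Over all tested genes, d8 stood at percentile 86.8 of mean TPM and d9 at percentile 68.8. The enzyme genes stood at percentile 27.3 for d3, 18.6 for an1 and 18 for d1. In each of the 6 samples d8 was the highest of the 5 genes and d9 the next. The excess of d9 over the highest enzyme was narrowest in mutant 4, at 1.96 times, and was 4.63 to 8.57 times in the other 5 samples. Among the enzymes, an1 was lowest in the 3 wild types and mutant 2, and d1 was lowest in mutants 3 and 4. The order of d3, d1 and an1 was not the same in every sample, and it was not tested. The place of an1 changed in mutants alone, where it passed d1 in mutants 3 and 4 and d3 in mutant 3.

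Between the genotypes none of the 5 genes passed the test. edgeR's quasi-likelihood test with Benjamini-Hochberg adjustment called 0 of 5 at an adjusted p of 0.05, beside 0 of all 22772 genes (0%). At an unadjusted p under 0.05 edgeR again gave 0 of the 5, where 2784 of all genes (12.2%) lay under it. DESeq2 on the same 6 samples called 0 of 5 and 658 of 24166 genes (2.72%). At an unadjusted p under 0.05 DESeq2 gave 0 of the 5 and 3754 of 27888 genes (13.5%). The median log2 fold change of the 5, mutant over wild type, was 0.05, and that of all tested genes was 0.00. The median absolute log2 fold change was 0.53 for the 5 and 0.30 for all tested genes. In whole apices, fewer cells that hold a transcript and less of it per cell cannot be told apart.

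**Figure D1:**
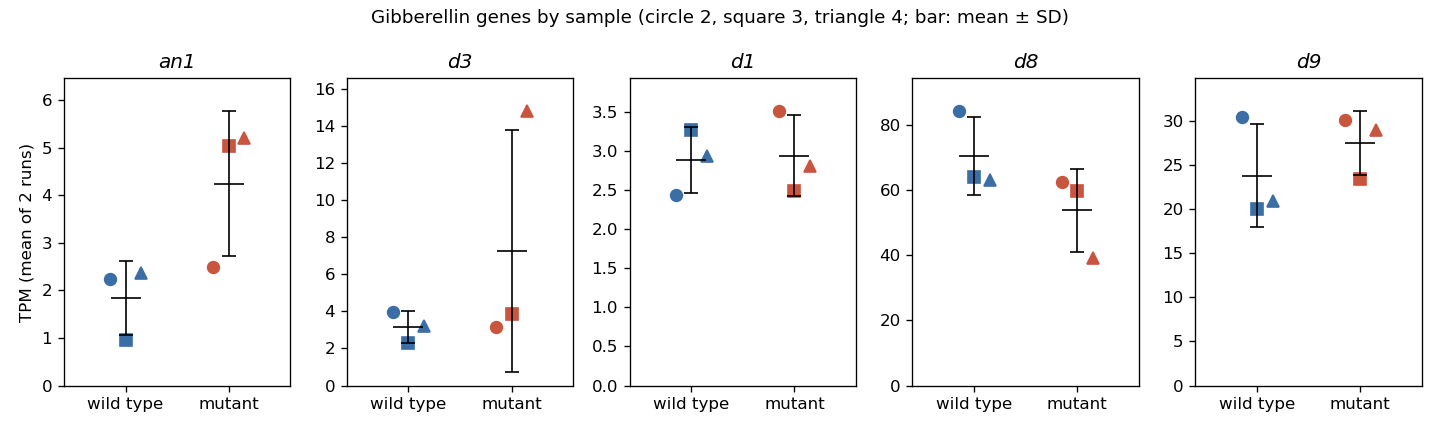
TPM of each gene (vertical axes from 0, mean of 2 runs) in the 3 wild types (blue) and 3 mutants (red), with circles for sample 2, squares for 3 and triangles for 4, and black bars for the mean ± SD. Mutant 4 holds the highest d3 value, 14.8, and the lowest d8 value, 39.2.

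The entry step of the pathway, an1, was at 2.23, 0.955 and 2.36 TPM in wild types 2, 3 and 4. In mutants 2, 3 and 4 it was at 2.49, 5.04 and 5.20 TPM. Mutants 3 and 4 stood high and wild type 3 low, while mutant 2 lay only 0.126 TPM above the highest wild type. The mean was 4.24 ± 1.52 TPM in the mutant against 1.85 ± 0.777 among wild types (SD, n = 3 per genotype), a ratio of 2.29. edgeR gave a log2 fold change of 0.95 (SE 0.48, 95% interval −0.20 to 2.10) with an adjusted p of 0.443. Over the fits with 1 sample left out, the lowest value was 0.61 without wild type 3 (edgeR adjusted p = 0.459). The highest was 1.24 without wild type 4 (edgeR adjusted p = 0.764). An exact two-sided permutation test of the TPM gave p = 0.1, the smallest that 3 samples against 3 allow. That value restates that the groups did not overlap in TPM. For d3, d1 and d9 the same permutation test gave p of 0.5, 0.9 and 0.4.

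Whether the an1 groups overlapped depended on the unit. In CPM scaled by TMM, wild types 2, 3 and 4 were at 7.10, 2.93 and 8.51 and mutants 2, 3 and 4 at 6.68, 15.2 and 14, so mutant 2 fell inside the wild-type range. The TPM of all genes leaned towards the mutant. In the fit of log2(TPM + 1) the median log2 fold change was 0.097 over the 28048 genes with a count. It was 0.13 over the 21535 genes with a TPM of at least 1 in 3 samples. Mutant TPM values lay wholly above those of the wild type in 15.6% of tested genes and wholly below in 5.43%. In total 2 of the 5 genes, an1 and d8, did not overlap in TPM, against 21.1% of all genes. In CPM only d8, 1 of the 5, did not overlap, against 19.3% of all genes.

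The deposited counts of an1 were whole numbers, within 0.002 counts, in only 4 of 12 runs, while the other 4 genes had whole counts in all 12. Over the 28048 genes with a count, 82.8% were whole in all 12 runs. Fractional counts arise where a counting program divides reads among transcripts of more than 1 gene. In wild type 3, run 1 gave 24.4 counts and run 2 gave 64, although run 1 held 51.7% of that library. The run 1 share of an1 there was 27.3% (95% exact binomial interval 18.3 to 37.8%). Within the other 5 samples the an1 interval held the share of the library. In run 1 alone the an1 groups overlapped, from 0.558 to 2.42 TPM in the wild type and from 2.29 to 5.06 in the mutant. In run 2 they did not, with a highest wild type of 2.30 and a lowest mutant of 2.68 TPM.

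The oxidase gene d3 was set apart by 1 sample. In wild types 2, 3 and 4 it was at 3.99, 2.28 and 3.23 TPM. In mutants 2, 3 and 4 it was at 3.15, 3.86 and 14.8 TPM. Mutants 2 and 3 lay within the wild-type range, and mutant 4 was 3.71 times the next highest sample. Over all tested genes, 485 of 22772 (2.13%) had a highest value among the 6 samples at least 3 times the next. The d3 mean was 7.27 ± 6.53 TPM in the mutant and 3.16 ± 0.856 in the wild type, and the edgeR log2 fold change was 0.95 (SE 0.67, 95% interval −0.64 to 2.55), adjusted p = 0.538. Without mutant 4 the log2 fold change was −0.09, with an edgeR adjusted p of 0.978, and the ratio of mean TPM was 1.11.

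The high d3 value was present in both runs of mutant 4, with 182 counts in run 1 and 119 in run 2. That corresponds to 11.7 and 8.22 CPM, against 1.19 to 3.15 CPM in the 10 runs of the other samples. The runs differed by more than counting error, since run 1 held 60.5% of the d3 counts (exact binomial interval 54.7 to 66%) and 51.7% of the library. A similar gap in the other direction was seen in mutant 2, with 21 counts in run 1 and 41 in run 2. Mutant 4 is also the sample at the end of the first component. The part of that general difference in the d3 value was not tested.

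The last enzyme, d1, had the narrowest relative range of TPM among the 5 genes. It was at 2.43, 3.27 and 2.94 TPM in wild types 2, 3 and 4 and at 3.51, 2.49 and 2.81 TPM in mutants 2, 3 and 4. The groups overlapped over nearly their whole range, and the highest sample was 1.44 times the lowest. The mean was 2.94 ± 0.519 TPM in the mutant and 2.88 ± 0.424 in the wild type. The edgeR log2 fold change was −0.12 (SE 0.30, adjusted p = 0.865), with a 95% interval of −0.85 to 0.61 that leaves room for a fold of 0.556 to 1.52. In TPM and in run 2 alone its sign was positive.

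Its spread within genotypes, an SD of 0.23 log2 CPM, stood at percentile 9.75 among the least abundant tested genes (the lowest of 3 equal classes), whose median SD was 0.56. By the same measure d3 was at percentile 74 of that class and an1 at percentile 91 of the middle class. The median SD of the middle class was lower, at 0.28, and the abundance of a gene inside its class was not allowed for. The d1 counts were 54 to 81 per sample, so counting error alone gives a coefficient of variation of about 12.1%. The observed coefficients were 14.1% among wild types and 19.1% among mutants. Among mutants that of d9 was lower, at 12.6%. A difference between genotypes in d1 well under the interval given was not detectable with these samples. The edgeR SE was 0.30 for d1 and 0.24 for d8, which had 1677 to 3904 counts per sample. The part of depth in the width of the d1 interval was not tested.

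**Figure D2:**
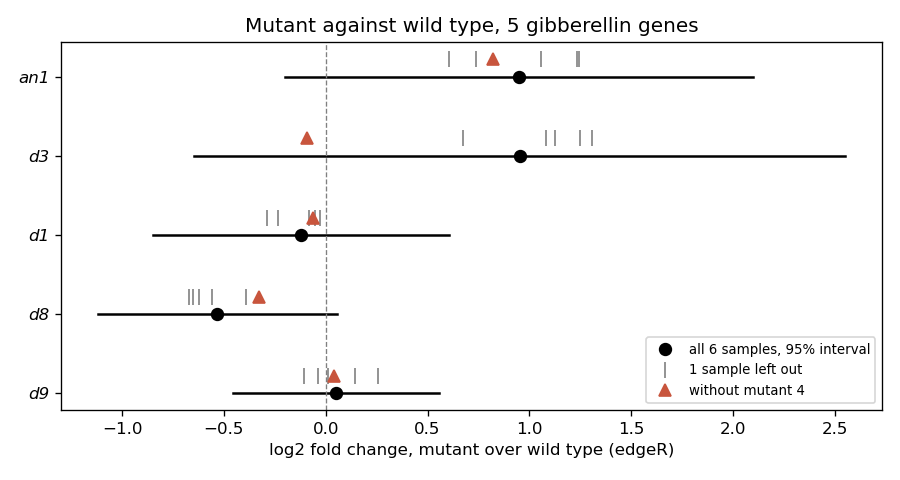
Log2 fold change, mutant over wild type, from edgeR on all 6 samples (black points, 95% intervals) and with 1 sample left out (grey ticks, red triangle for mutant 4). Each interval of the 5 genes spans 0, and d3 moves from 0.95 to −0.09 without mutant 4.

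The DELLA gene d8 was the most abundant of the 5 and lower on average in the mutant. It was at 84.2, 63.9 and 63.2 TPM in wild types 2, 3 and 4 and at 62.5, 59.6 and 39.2 TPM in mutants 2, 3 and 4. The groups did not overlap, but the lowest wild type and the highest mutant were only 0.71 TPM apart. Wild type 2 stood high and mutant 4 low, with the other 4 samples between 59.6 and 63.9 TPM. The mean was 53.8 ± 12.7 TPM in the mutant and 70.4 ± 11.9 in the wild type. edgeR gave a log2 fold change of −0.53 (SE 0.24, 95% interval −1.12 to 0.05), with an adjusted p of 0.421 and an unadjusted p of 0.0683. The exact permutation test of the TPM gave p = 0.1, the smallest possible.

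Counting error was not the limit for d8, since 1677 to 3904 counts per sample give a coefficient of variation of about 1.88%, against 17.4% among wild types and 26.5% among mutants in CPM. The gap between the groups was smaller than the difference between runs in 5 of 6 samples. In run 1 alone the groups overlapped, with a lowest wild type of 65 and a highest mutant of 65.6 TPM, while in run 2 they were at 60.9 and 59.5. Without mutant 4 the edgeR log2 fold change was −0.33 (adjusted p = 0.746), and without wild type 2 it was −0.39 (adjusted p = 0.758). In CPM, the order of d8 across the samples ran close to that of the first component, highest in wild types 2 and 4 and lowest in mutants 3 and 4, with wild type 3 and mutant 2 between them in exchanged order. In TPM wild type 3 stood slightly above wild type 4. The part of that component in the d8 difference was not tested, and with these samples it cannot be fully told apart from genotype.

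In the authors' deposited table, which lists transcripts at an adjusted p of up to 0.05, d8 was the 1 gene of the 5 present, where 22% of all genes with a count are listed. The authors' deposited table gives d8 transcript T001 a log2 fold change of 0.55 (SE 0.18) and an adjusted p of 0.0242. Its header names no numerator. The size is close to the gene's 0.53 computed here with the opposite sign, and the sign is read as wild type over mutant. The mean in the authors' deposited table is 1412, near the d8 count of a single run. When each of the 12 runs was counted as a sample, DESeq2 gave d8 a log2 fold change of −0.54 (SE 0.18) with an adjusted p of 0.0156, beside 5993 of 24808 genes called (24.2%). With runs summed, DESeq2 gave −0.54 (SE 0.28) and an adjusted p of 0.339. In the 12-run fit an1 was also called, at an adjusted DESeq2 p of 0.049, and the other 3 genes were not. Runs of 1 library vary less than separate samples do, so the 12-run values do not test the genotypes.

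The second DELLA gene, d9, was not lower on average in the mutant. It was at 30.4, 20 and 20.9 TPM in wild types 2, 3 and 4 and at 30.1, 23.3 and 29 TPM in mutants 2, 3 and 4. Wild type 2 and mutant 2 were the highest of the 6, and the groups overlapped. The mean was 27.4 ± 3.6 TPM in the mutant and 23.8 ± 5.78 in the wild type. The edgeR log2 fold change was 0.05 (SE 0.21, adjusted p = 0.921), with a 95% interval of −0.46 to 0.56, and it turned negative without wild type 3 (−0.11) or without mutant 2 (−0.04).

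**Figure D3:**
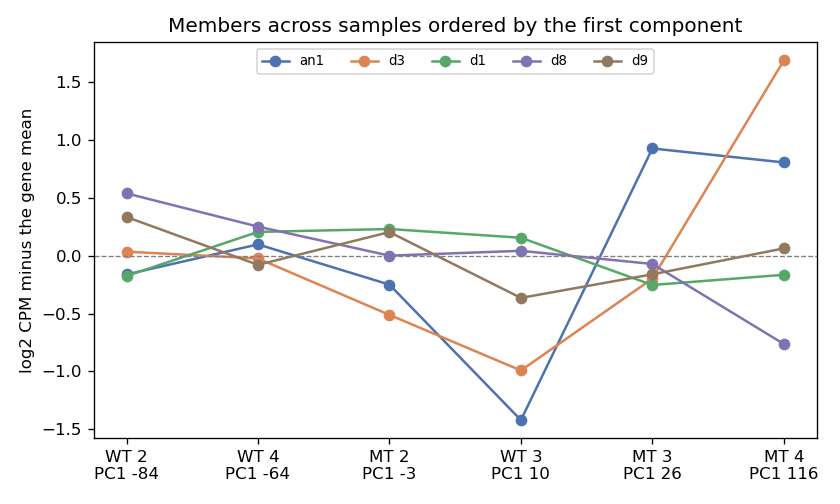
Log2 CPM of each gene minus its mean over the 6 samples (vertical axis), with samples ordered by their score on the first principal component (horizontal axis, scores rounded to whole numbers). The d8 line descends to mutant 4, d3 and an1 are lowest in wild type 3, and d3 is highest in mutant 4.

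The balance within the DELLA pair can be read inside each sample, where the scaling of the library cancels. The share of d8 in the summed TPM of d8 and d9 was 73.4%, 76.1% and 75.2% in wild types 2, 3 and 4. It was 67.5%, 71.9% and 57.5% in mutants 2, 3 and 4. All 3 mutants lay below the lowest wild type, and the mean was 65.6 ± 7.35% in the mutant against 74.9 ± 1.37% in the wild type. The share is built from d8, which by itself did not overlap in TPM, as was so for 21.1% of all tested genes. It is therefore not a result separate from that of d8. How often the share within other pairs of genes fails to overlap was not computed. As a ratio, d8 was 2.76 to 3.19 times d9 in the wild types and 1.35 to 2.56 times d9 in the mutants. No p is given, since the pair was chosen with results of these data known. The difference of −9.26 percentage points was −5.21 without mutant 4, where the mutant share still lay below the wild-type share in both remaining samples.

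The enzymes together were compared with the DELLA pair in the same way. The mean log2(TPM + 1) of an1, d3 and d1 was 1.93, 1.59 and 1.94 in wild types 2, 3 and 4 and 2.01, 2.23 and 2.85 in mutants 2, 3 and 4. In TPM, whose values for all genes lean towards the mutant as given above, the mutants lay above the wild types, mutant 2 by a small step over wild type 4. In log2 CPM the enzyme mean was 1.85, 1.20 and 2.04 in the wild types and 1.77, 2.11 and 2.73 in the mutants, so there mutant 2 lay below wild types 2 and 4 and the groups overlapped. For d8 and d9 the mean was 5.69, 5.21 and 5.23 in the wild types and 5.47, 5.26 and 5.12 in the mutants, and these groups overlapped.

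The enzyme mean minus the DELLA mean was −3.76, −3.61 and −3.29 in wild types 2, 3 and 4. In mutants 2, 3 and 4 it was −3.46, −3.04 and −2.27. Mutant 2 fell inside the wild-type range and mutant 4 stood farthest from it. The group means were −2.92 ± 0.61 in the mutant and −3.56 ± 0.24 in the wild type, a difference of 0.63 that became 0.31 without mutant 4. In summed TPM the DELLA pair exceeded the enzymes 13.2, 12.9 and 9.86 times in wild types 2, 3 and 4, and 10.1, 7.28 and 2.99 times in mutants 2, 3 and 4. These class values are descriptions, and the 3 enzymes did not move as a block. The gene d1 stayed near 3 TPM throughout, d3 was high in mutant 4 alone, and an1 was high in mutants 3 and 4.

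**Figure D4:**
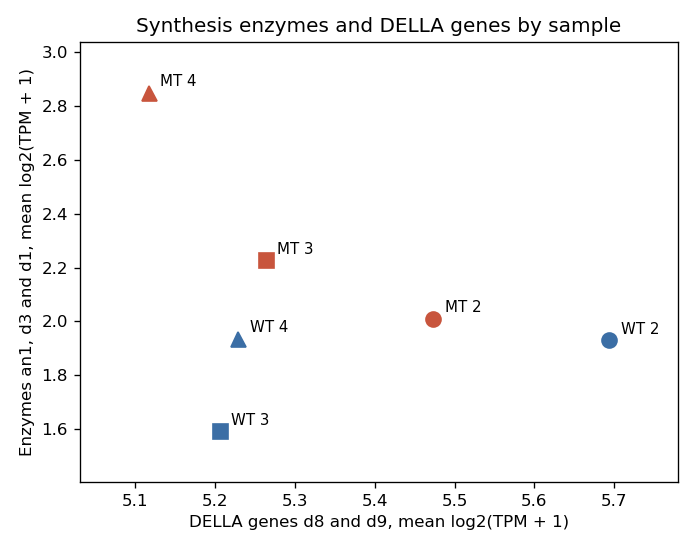
Mean log2(TPM + 1) of an1, d3 and d1 (vertical axis) against that of d8 and d9 (horizontal axis), 1 point for each of the 3 wild types (WT, blue) and 3 mutants (MT, red). Mutant 4 lies apart, at 2.85 for the enzymes and 5.12 for the DELLA genes, and the other 5 samples span 1.59 to 2.23 for the enzymes.

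The use of long and short transcripts of a gene was compared through their average length, tested with limma. Neither an1 nor d3 passed, with adjusted limma p-values of 0.502 and 0.643, where 2 of 21744 genes (0.0092%) were called. At an unadjusted p under 0.05 limma gave 931 genes (4.28%) and neither of this pair. For d8, d9 and d1 the test says nothing of transcript use, because their lengths changed in step from run to run. The length of d8 exceeded that of d9 by 15 bases in all 12 runs, and d9 exceeded d1 by 729, so their lengths moved by the same number of bases in each library. The length of d3 ranged from 670 to 823 bases and that of an1 from 2692 to 3453 bases over the runs, and neither kept such a constant offset. For d3 the mean was 721 ± 19.5 bases in the mutant and 744 ± 63.6 in the wild type. Mutant 4, where d3 was high, had a d3 length of 742 bases, inside the wild-type range of 676 to 802.

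**Figure D5:**
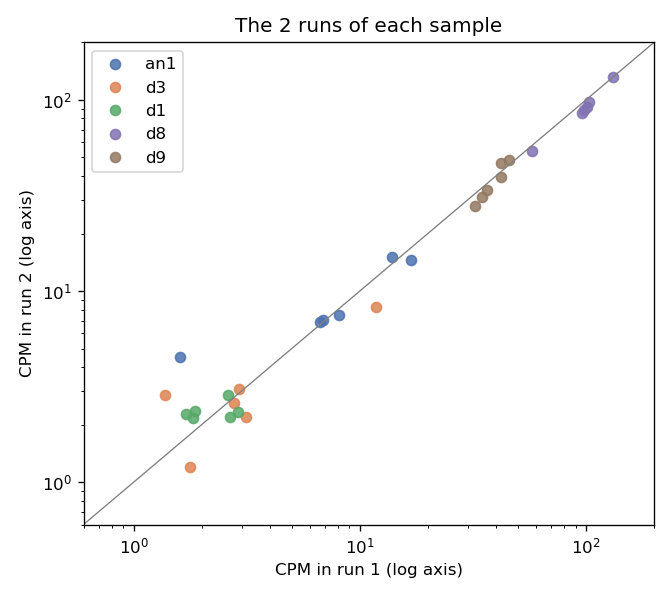
CPM in run 1 (horizontal) and run 2 (vertical) on log axes, 1 point for each gene and sample, with the line of equality in grey. Points of d8 and d9 lie close to the line, those of d8 slightly to the run 1 side, and those of an1, d3 and d1 scatter more at low CPM.

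Across the 30 pairs of runs, the exact binomial interval of the run 1 share held the share of the library in 23. The 7 exceptions were 3 of d8, 2 of d3, 1 of an1 and 1 of d9. For d8 the run 1 share was above that of the library in every sample, from 51.8% in wild type 2 to 54.9% in mutant 3. The library share was 51.7% in wild type 2 and 51.8% in mutant 3.

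The genes whose pattern over the 6 samples was most like that of d8 in log2 CPM were Zm00001d034700 and Zm00001d014865, both with a Pearson r that rounds to 0.998. For d1 they were Zm00001d025236 (r = 0.987) and Zm00001d022341 (r = 0.984). Of the other 22771 tested genes, 325 had r over 0.95 with d8 and 22 with d1. These correlations are descriptions over 6 samples that share libraries and depth, and with so many genes compared high values are bound to occur. What these 4 genes encode is not given in the files.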

How the data were processed

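RNA was sequenced from 6 apex samples in strand-specific libraries, with paired reads of 150 bases and an RNA integrity number of 9 per the labels' protocols. The submitters' processing notes name STAR, Salmon and DESeq2. Their versions and roles, the genome build and any filter were not given in the sources used here. Per the file headers, the gene IDs are version 4 gene models. The authors deposited estimated counts, TPM and an average transcript length (read as a signal in bases) for each gene and run. The authors' deposited table of transcripts holds the mean normalized signal, the log2 fold change with its SE, the Wald score, and both raw and adjusted p-value.

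Estimated counts of 2 runs were summed per sample and rounded, and TPM and lengths were averaged. The main test was edgeR 4.0.16 (R 4.3.3) quasi-likelihood, two-sided, with TMM scaling and filterByExpr, adjusted by Benjamini-Hochberg over 22772 genes. SEs and intervals derive from its F statistic and degrees of freedom. Log2 CPM used a prior count of 2. Lengths were tested with limma 3.58.1 where mean TPM reached 1. Alternatives were DESeq2 1.42.0, limma-voom, log2 TPM fits, other filters and scaling, single runs, a length offset, a replicate block and each sample left out. Tests were checked on simulated data. Named genes were the 5 members and the 2 tested genes most correlated with each of d1 and d8. The members and lists were chosen with earlier results of these data known. PCR reads are not independent molecules, so intervals on counts cover counting error only.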

Additional observations from a re-analysis of the deposited data

How the results depend on the processing

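Of the 5 genes, an1 kept a higher and d8 a lower mutant value in all 25 alternatives, and neither passed the threshold with runs summed (adjusted p of 0.173 to 0.783 for an1 and 0.225 to 0.803 for d8). Both passed with DESeq2 on the 12 run columns, an alternative chosen after seeing the data, at 0.95 and −0.54. The log2 fold change of d1, −0.12, became 0.018 with log2(TPM + 1), filtered or not, 0.023 with log2(TPM + 0.1) and 0.10 in run 2 alone. That of d3, 0.95, became −0.092 without mutant 4 by edgeR and −0.094 by DESeq2. That of d9, 0.05, became −0.11 without wild type 3 and −0.04 without mutant 2 by edgeR, and −0.12 and −0.048 by DESeq2. For d1 and d9, whose values lie near 0, the cause was not tested. With each sample left out in turn, edgeR gave 0.61 to 1.24 for an1, −0.09 to 1.31 for d3, −0.29 to −0.03 for d1, −0.67 to −0.33 for d8 and −0.11 to 0.26 for d9. The count of 0 genes called became 658 with DESeq2 on 6 samples and 5993 on the 12 run columns, and was 0 in the other 17 alternatives, the edgeR leave-outs included (0 to 0). The DESeq2 leave-outs called 185 to 1344 genes and 0 of the 5. The 2784 genes at unadjusted p under 0.05 became 1348, 1475 and 1693 on removal of wild type 2, wild type 4 or mutant 4, and 3639, 3326 and 3236 on removal of wild type 3, mutant 2 or mutant 3. The replicate block gave 0 calls and 1790 genes at unadjusted p under 0.05. The correlation between deviations of samples with equal numbers was 0.22, −0.27 and −0.18, so the numbers were not taken as pairs. The difference of enzyme and DELLA means, 0.63, ranged from 0.31 to 0.90 and that of the d8 share, −9.26 points, from −12.4 to −5.21 over the leave-outs. The length difference of d3, −0.04 on the log2 scale, became 0.013 without wild type 4. Counts of d1 were low, with as few as 54 in a sample, and the part of depth in its interval was not tested.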
